A study of Mus musculus with 2 samples.

Results

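The Toll-like receptor genes described here are the 10 genes Tlr1, Tlr2, Tlr3, Tlr4, Tlr5, Tlr6, Cd14, Ly96, Myd88 and Ticam1, chosen by name, and all 10, each annotated as protein coding, were found among the 49492 genes of the count table. Wild-type mammary basal cells (genotype WT) were sorted from adult female mice by FACS and grown in a 3D matrix gel, and RNA of the whole cultures was sequenced. The ctrl group received no treatment. The M2 group shared its wells with bone marrow-derived macrophages that Il-4 and Il-13 had turned M2-like, for 11 to 14 days. According to the study's methods both groups grew in medium with EGF and insulin, and the macrophages sat in a transwell insert, separated from the gel by a porous membrane, and were replaced during the culture. Each group was 1 library, and the spread between cultures is therefore unknown for every difference given here. Whether animals were pooled is not given in the sources used here.

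Toll-like receptors carry leucine-rich repeats that bind microbial molecules or products of damaged tissue, and a TIR domain inside the cell that recruits adaptors. Tlr4 binds lipopolysaccharide only in a complex with the small protein MD-2, the product of Ly96, and Cd14 hands the lipopolysaccharide to that complex. Tlr2 pairs with Tlr1 or Tlr6 to recognise bacterial lipopeptides, Tlr5 recognises flagellin, and Tlr3 binds double-stranded RNA in endosomes. The adaptor Myd88 serves all of these except Tlr3 and leads to NF-κB, whereas Tlr3 uses Ticam1 (TRIF), which also leads to interferon regulatory factors and which Tlr4 uses from endosomes. In the mammary gland Cd14 is known as a surface marker of luminal progenitors as well as of macrophages and monocytes.

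The ctrl library held 26912610 reads in genes and the M2 library 29413844. Epithelial identity was checked first. The basal keratin genes Krt5 (56383 reads in ctrl and 83619 in M2) and Krt14 (81991 and 68968 reads) and the luminal keratin gene Krt8 (29888 and 36348 reads) were all abundant, so the cultures held transcripts of both lineages. In bulk RNA, a change in the number of cells of a type and a change of RNA per cell cannot be told apart, and this holds for every value below. All 10 genes passed the filter of at least 10 reads over both libraries, which left 19233 genes. Levels are given as RPKM, which corrects reads for exon length and for library size (scaled by TMM), and differences as log2 of M2 over ctrl, calculated on reads plus 1, with a 95% interval that covers counting error only. A gene was called when its adjusted p in an exact binomial test on the reads was under 0.05 and the difference was at least 2-fold. That test compares these 2 libraries and not the conditions.

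Among the 10 genes, 1 was called higher in M2 (Cd14) and 0 were called lower, against 8.16% and 6.55% of all genes tested, so the number of calls was near the background. The median log2 difference of the 10 genes was 0.04, beside -0.0032 for all genes. A positive value was seen for 6 genes and a negative one for 4. The interval lay wholly inside 2-fold for 7 genes, that is, for all except Cd14, Tlr1 and Tlr6, and 5 of the 10 values fell between the lower (-0.32) and upper (0.35) quartiles of all genes. The counting interval left out 0 for 8 genes, the exceptions being Tlr1 and Ly96. These intervals are not adjusted for the number of genes, and the adjusted p of Tlr6 in the exact binomial test was 0.062. The co-receptor gene Cd14 thus stood apart from the other genes, whose values lay under 2-fold, from -0.60 (Tlr6) to 0.81 (Tlr2).

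**Figure D1:**
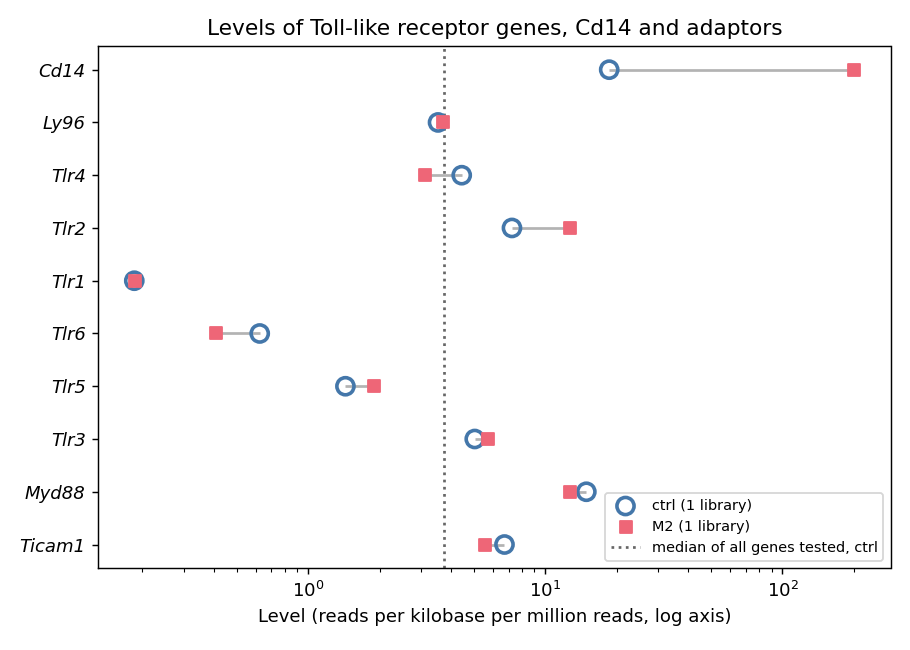
Level of each of the 10 genes in the ctrl library (open circles) and the M2 library (squares), in RPKM on a log axis. The dotted line is the median of all genes tested in ctrl (3.74). Cd14 moved from 18.6 to 201 RPKM, and the other 9 genes stayed between 0.18 and 14.9 RPKM in both libraries.

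**Figure D2:**
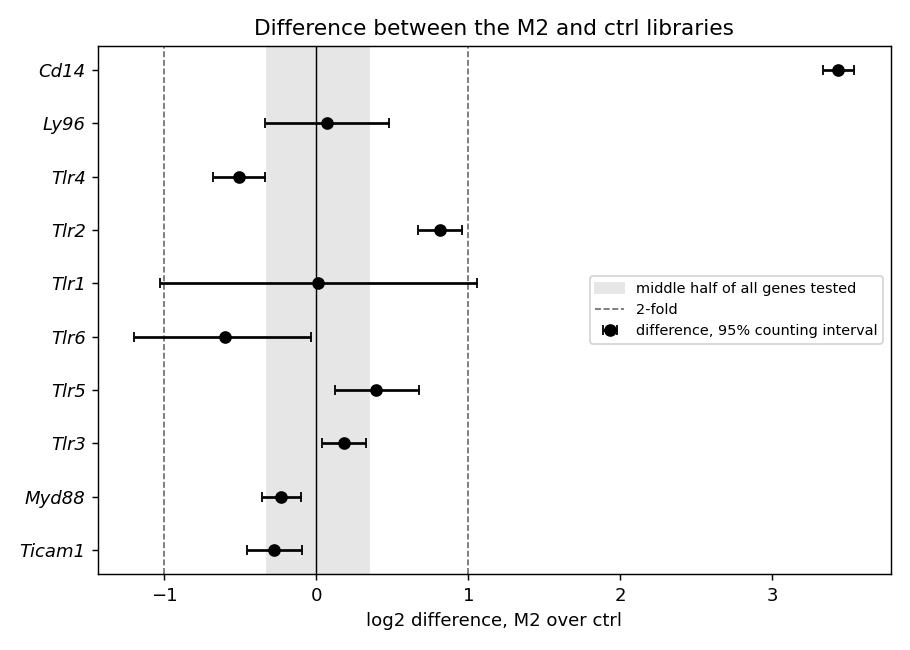
Difference of each gene on the log2 scale (M2 over ctrl, 1 library each) with its 95% counting interval. The grey band runs from the lower to the upper quartile of all genes tested, and the dashed lines mark 2-fold. Only the value of Cd14, at 3.43, lies beyond the dashed lines, and the widest interval is that of Tlr1.

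The lipopolysaccharide receptor was considered first, since its 3 parts did not move together. Cd14 (chromosome 18, 36725074 to 36726736, GRCm38, minus strand), which has no signalling domain of its own and presents lipopolysaccharide to the receptor, was covered by 803 ctrl reads and 9114 M2 reads. This was a log2 difference of 3.43 (95% interval 3.33 to 3.54), or 10.8-fold (10.1 to 11.6), and ranked 184 of 19233 genes. Of the 474 genes with at least as many reads in M2, only 6 had a larger difference. Per length, Cd14 moved from rank 3131 to rank 238 of all genes tested, and from 29.7% to 81.4% of the summed RPKM of the 10 genes.

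Tlr4 (chromosome 4, 66827584 to 66930284, plus strand), the signalling receptor for lipopolysaccharide, had 678 and 500 reads. Its level was 4.44 RPKM in ctrl and 3.12 in M2, with a log2 difference of -0.51 (-0.68 to -0.34), not called. Ly96 (chromosome 1, 16688051 to 16709611, plus strand) had 99 and 109 reads and levels of 3.53 and 3.70 RPKM, and its difference of 0.07 (-0.34 to 0.48) could not be told from 0 at this depth. Cd14 therefore had 4.19 times the RPKM of Tlr4 in ctrl and 64.4 times in M2. The change of that ratio, which does not depend on how the libraries are scaled, was 3.94 on the log2 scale (95% conditional exact interval of the odds ratio of reads, 3.74 to 4.14). Ly96 had 0.79 times the RPKM of Tlr4 in ctrl and 1.19 times in M2, a change of 0.58 (0.14 to 1.02). Tlr4 and Ly96 thus stood close to each other per length in both libraries, at about the median level of all genes, and Cd14 was in large excess of both in M2. Ratios between genes depend on the length used. The exon lengths here were 1572 bases for Cd14, 5556 for Tlr4 and 1021 for Ly96. The longest coding transcripts of GENCODE M21 have 1641, 4077 and 632 bases.

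The lipopeptide receptors gave the second largest difference. Tlr2 (chromosome 3, 83836272 to 83841767, minus strand), the subunit common to both heterodimers, was covered by 599 ctrl reads and 1105 M2 reads, with a log2 difference of 0.81 (0.67 to 0.96) or 1.76-fold (1.59 to 1.95). It was not called, since the difference was under 2-fold. Its level moved from 7.24 to 12.7 RPKM, the third highest of the 10 genes in ctrl and the second in M2. The partner genes Tlr1 (chromosome 5, 64924679 to 64933563) and Tlr6 (chromosome 5, 64952031 to 64960097), which lie next to each other on the minus strand, were well under the median level of all genes (3.74 RPKM). Tlr1 had 17 and 18 reads (0.18 and 0.19 RPKM, log2 difference 0.0088, interval -1.03 to 1.06), and a 2-fold difference in either direction was not detectable at this depth. Tlr6 had 64 and 44 reads (0.63 and 0.41 RPKM), with a difference of -0.60 (-1.20 to -0.03). Per length, Tlr2 exceeded the sum of both partners 8.93 times in ctrl and 21.3 times in M2, and the log2 change was 1.26 (interval for reads 0.75 to 1.79). Set against Tlr4, the ratio of Tlr2 moved from 1.63 to 4.07, a change of 1.32 (1.10 to 1.55).

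The counts of Tlr1 and Tlr6 are uncertain beyond counting error, because their transcripts are identical over long runs. In the longest coding transcripts of GENCODE M21, 15.3% of the 50-base windows of Tlr1 and 12.5% of those of Tlr6 occur in the other gene, and with 100-base windows the shares were 8.85% and 7.24%. How reads matching both genes were counted is not given in the sources used here. The longest run that both share is 229 bases, wholly coding, starting at base 1468 of the Tlr1 and base 1507 of the Tlr6 coding sequence when the first base of the start codon is base 1. It is shown because any read inside it fits both genes equally. The sequence is from the GENCODE transcripts.
Tlr1 and Tlr6 shared run: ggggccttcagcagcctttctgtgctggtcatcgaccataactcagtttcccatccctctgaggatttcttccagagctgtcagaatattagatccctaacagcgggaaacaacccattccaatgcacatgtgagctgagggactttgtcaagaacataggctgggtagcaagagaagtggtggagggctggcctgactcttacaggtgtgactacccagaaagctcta

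The promoter table of RefSeq (GRCm38.p6, 250 bases before to 50 after each annotated start) held windows for 7 of the 10 genes, and Cd14, Tlr4 and Ly96 were not among them. The windows were searched on both strands for the κB consensus motif, for the interferon response element core (ISRE, 2 GAAA tetramers set 2 bases apart), TGANTCA (AP-1), GGGCGG (GC box) and TATAAA. The κB consensus, present in 8.46% of the 32851 windows, was found in those of Tlr2 and Tlr3. In Tlr2 the matches begin at positions -173 and -172, which overlap, and at -8, counted from the RefSeq start. In Tlr3 the match begins at -211 and lies within an exon of the count table. The ISRE core, present in 3.44% of windows, occurred in Myd88 at -40 and in 1 of the windows of Tlr6, there at the overlapping positions -116 and -110 on the other strand. No window of the 7 genes held TGANTCA, which 7.81% of all windows hold. GGGCGG, present in 35.7% of windows, occurred in those of Myd88, Ticam1, Tlr2, Tlr3 and Tlr5. TATAAA, present in 13.6%, occurred in Myd88 and in 1 of the windows of Tlr6. The stretches of the Tlr2 and Myd88 windows that lie outside every exon of the count table are shown, 5′ to 3′ on the minus strand, because Tlr2 was the receptor with the largest difference and Myd88 is the adaptor that most of the family needs. Capitals mark the κB matches at -173 and -172 in Tlr2 and the ISRE core in Myd88. The Tlr2 match at -8 lies outside the stretch shown. A match is a description of letters and not of binding.
Tlr2, chr3:83841768-83841858: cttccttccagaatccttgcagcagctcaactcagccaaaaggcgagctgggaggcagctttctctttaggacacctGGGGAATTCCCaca
Myd88, chr9:119340042-119340268: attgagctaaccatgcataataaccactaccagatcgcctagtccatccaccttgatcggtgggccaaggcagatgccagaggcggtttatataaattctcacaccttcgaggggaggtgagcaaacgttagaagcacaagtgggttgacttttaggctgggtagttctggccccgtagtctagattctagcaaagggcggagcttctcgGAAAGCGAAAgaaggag

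Both receptors that work without the lipopolysaccharide complex or Tlr2 had small differences. Tlr3 (chromosome 8, 45395665 to 45411080, minus strand) had 721 reads in ctrl and 858 in M2, levels of 5.04 and 5.72 RPKM, and a log2 difference of 0.18 (0.04 to 0.33). Tlr5 (chromosome 1, 182954788 to 182976044, plus strand) had 189 and 261 reads, levels of 1.44 and 1.89 RPKM, and a difference of 0.39 (0.12 to 0.67). Neither was called. The exons of Tlr3 share 381 bases with Gm45542, a gene on the opposite strand with 37 and 48 reads, and the use of strand in counting is not given in the sources used here.

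The adaptor genes had slightly fewer reads in M2, and neither was called. Myd88 (chromosome 9, 119335934 to 119341411, minus strand) had 1054 and 942 reads, levels of 14.9 and 12.7 RPKM, and a log2 difference of -0.23 (-0.36 to -0.10). Ticam1 (chromosome 17, 56269319 to 56276786, minus strand) had 553 and 479 reads, levels of 6.73 and 5.56 RPKM, and a difference of -0.28 (-0.46 to -0.10). The ratio of Myd88 to Ticam1 per length was 2.21 in ctrl and 2.28 in M2, and its log2 change of 0.05 (-0.18 to 0.27) held 0. Exons of Myd88 share 290 bases with those of Acaa1a on the opposite strand, which had 2046 and 2039 reads, so that without strand a part of the Myd88 reads could belong to Acaa1a.

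In the ctrl library the order of levels per length was Cd14, Myd88, Tlr2, Ticam1, Tlr3, Tlr4, Ly96, Tlr5, Tlr6 and Tlr1, from 18.6 down to 0.18 RPKM. In M2 it was Cd14, Tlr2, Myd88, Tlr3, Ticam1, Ly96, Tlr4, Tlr5, Tlr6 and Tlr1, from 201 down to 0.19 RPKM. Neighbours such as Tlr2 and Myd88 in M2 (12.72 and 12.69 RPKM) or Tlr3 and Ticam1 in M2 (5.72 and 5.56 RPKM) lay closer than their counting error. The order also depends on the exon length used and was not recalculated with other lengths. For Tlr3 and Tlr4 these were 5207 and 5556 bases, against 4407 and 4077 in the longest coding transcripts. With 1 library per group no replicate checks the order.

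The rest of the pathway was examined through 9 lists arranged by role. Of 68 listed genes tested, 30 were called higher in M2 (44.1%, against 8.16% of all genes) and 3 lower (4.41%, against 6.55%), and the median log2 difference was 0.81, against -0.0032 for all genes. The lists were drawn up with earlier results of these libraries known, so their counts are a description and support nothing. No test of the difference between lists was made. Genes with few reads in 1 library passed the filter of 10 reads only through the other library. Examples are Tlr13 (0 and 10 reads) and Ccl5 (1 and 9 reads), called higher, and Cd36 (16 and 0 reads), called lower. Their calls are given as a description only.

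Of the receptors outside the 10 genes, Tlr8, Tlr9, Tlr11 and Tlr12 had 0 reads in both libraries, which allows up to 0.11 CPM (reads scaled to library size) in ctrl and 0.10 in M2. Tlr7 had 2 reads in ctrl and 0 in M2. Tlr13, a receptor for bacterial ribosomal RNA, had 0 and 10 reads and so passed the filter through M2 alone. It was 3.18-fold higher in M2 with ctrl set to the floor of 3 reads, and the lower limit of the counting interval was 2.14-fold. These are the receptors of endosomes, and Tlr3 was the one of that kind with more than 10 reads.

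Among receptor partners and chaperones, 2 of 6 genes tested were called higher and 1 lower, against 8.16% and 6.55% of all genes. The median was 0.31. Lbp, the serum protein that passes lipopolysaccharide to Cd14, had 88 ctrl reads and 1781 M2 reads, a log2 difference of 4.25 (3.96 to 4.60). Unc93b1, which escorts endosomal receptors, had 329 and 950 reads (1.46). The scavenger receptor gene Cd36, a partner of Tlr2, had 16 and 0 reads, 5.60-fold lower in M2 with M2 set to the floor of 3 reads, and the upper limit of the counting interval of M2 over ctrl was 0.247. The receptor chaperone genes Cnpy3 and Hsp90b1 had values of -0.21 and 0.83 and Cd180, a relative of Tlr4, of -0.26, and none was called. Ly86, the partner of Cd180, had 0 reads in both libraries. Both genes that deliver lipopolysaccharide to Tlr4, Lbp and Cd14, were thus among the calls, while Tlr4 and Ly96 were not.

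Of the other TIR adaptors, Tirap (331 and 519 reads), which bridges Tlr2 and Tlr4 to Myd88, had a log2 difference of 0.58 and Sarm1 (16 and 14 reads) of -0.25, and neither was called. Ticam2, which links Tlr4 to Ticam1, had 1 and 6 reads and was too low to be tested. Pik3ap1, which links Toll-like receptors to PI3K, had 3 and 212 reads, a ratio of 67.4 (95% interval 22.7 to 329). Among 19 signalling intermediates, from the Irak kinases through Traf6 and Map3k7 to the IKK subunits and the interferon regulatory factors, 2 were called higher and 0 lower, against 8.16% and 6.55% of all genes, and the median was -0.0076. The called genes were Ikbke (336 and 1191 reads, log2 1.75) and Traf3 (796 and 1688 reads, log2 1.01), both in the branch towards interferon. The kinase gene Tbk1 (0.39) and the interferon regulatory factor genes Irf3 (-0.10), Irf5 (0.25) and Irf7 (0.07), of the same list, were not called. Irak1, Irak4, Traf6 and Map3k7, which act directly behind Myd88, had values of -0.15, 0.31, -0.11 and 0.04, also not called. The uncalled genes named from this list were chosen after their values were seen.

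The inhibitors were divided. Of 9 genes, 4 were called higher and 1 lower, against 8.16% and 6.55% of all genes, with a median of 0.04. Irak3, which encodes IRAK-M, an inhibitor of the Irak complex, had 265 ctrl reads and 2216 M2 reads, a log2 difference of 2.99 (2.81 to 3.18). Tnfaip3, which encodes the deubiquitinating enzyme A20, had 312 and 1836 reads (2.48), its partner Tnip1 had 1198 and 3418 reads (1.44), and Il1rl1, the interleukin-33 receptor gene, had 19 and 81 reads (1.97). Dusp1, a MAP kinase phosphatase, had 9423 and 4804 reads (-1.04). Tollip and Sigirr, which hold the receptor complex in check at rest, had values of -0.30 and -0.47 and were not called, nor were Rnf216 (-0.0066) and Cyld (0.04).

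Among genes for endogenous ligands, 4 of 7 were called higher and 1 lower, against 8.16% and 6.55% of all genes. The median was 1.61. Saa3, an acute phase protein described as a Tlr4 ligand, had 3 and 843 reads, a ratio of 268 (91.3 to 1301). The calgranulin genes S100a8 (1 and 44 reads) and S100a9 (1 and 47 reads) had ratios of 41.9 (7.14 to 1694) and 44.8 (7.66 to 1807). Of the matrix ligands, Tnc (12433 and 39838 reads) differed by 1.61 and Bgn (29832 and 10906 reads) by -1.52 on the log2 scale, both called, and Vcan by 0.79, not called. Hmgb1, a nuclear protein that dying cells release, was not called (0.37). The receptors of the interleukin-1 family share Myd88. Of 4 genes, 2 were called higher and 0 lower, against the same shares of all genes, with a median of 0.91. The called genes were Il18r1 (154 and 1229 reads, log2 2.92) and Il1rap (1228 and 3142 reads, log2 1.29). Il1r1, the interleukin-1 receptor itself, had 1361 and 1243 reads (-0.20), and Il1rl2 had a value of 0.53. Neither was called.

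The 12 target genes of the NF-κB arm that could be tested had a median of 2.38. Of these, 10 were called higher and 0 lower, against 8.16% and 6.55% of all genes. Lcn2 (12343 and 76343 reads, log2 2.56), Cxcl1 (6471 and 32661 reads, log2 2.27), Tnf (133 and 1032 reads, log2 2.88) and Csf3 (25 and 736 reads, log2 4.76) were among them. The largest value was that of Il1a, an interleukin-1 gene (9 and 920 reads, log2 6.46), and the others were the chemokine genes Ccl20 (3.71) and Cxcl2 (2.49), Nfkbiz (1.35), Ptgs2 (1.02) and Il6 (4 and 17 reads, log2 1.78). Nfkbia (0.88) and Icam1 (0.86) were not called, and Il1b, with 2 and 4 reads, was too low to be tested. These genes are induced by many receptors, among them those for TNF and interleukin-1, so their counts are not specific to Toll-like receptors. Among 7 target genes of the interferon arm, 4 were called higher and 0 lower, against the same shares of all genes. The median was 1.18. Rsad2 (81 and 392 reads, log2 2.19), Cxcl10 (36 and 130 reads, log2 1.75) and Ifit3 (229 and 545 reads, log2 1.18) were called. So was Ccl5 with 1 and 9 reads, a ratio of 8.58 (1.19 to 376), which reached the filter only through its M2 reads. Isg15 (-0.24), Ifit1 (0.99) and Ifit2 (0.35) were not called, and Ifnb1 had 0 reads in both libraries.

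**Figure D3:**
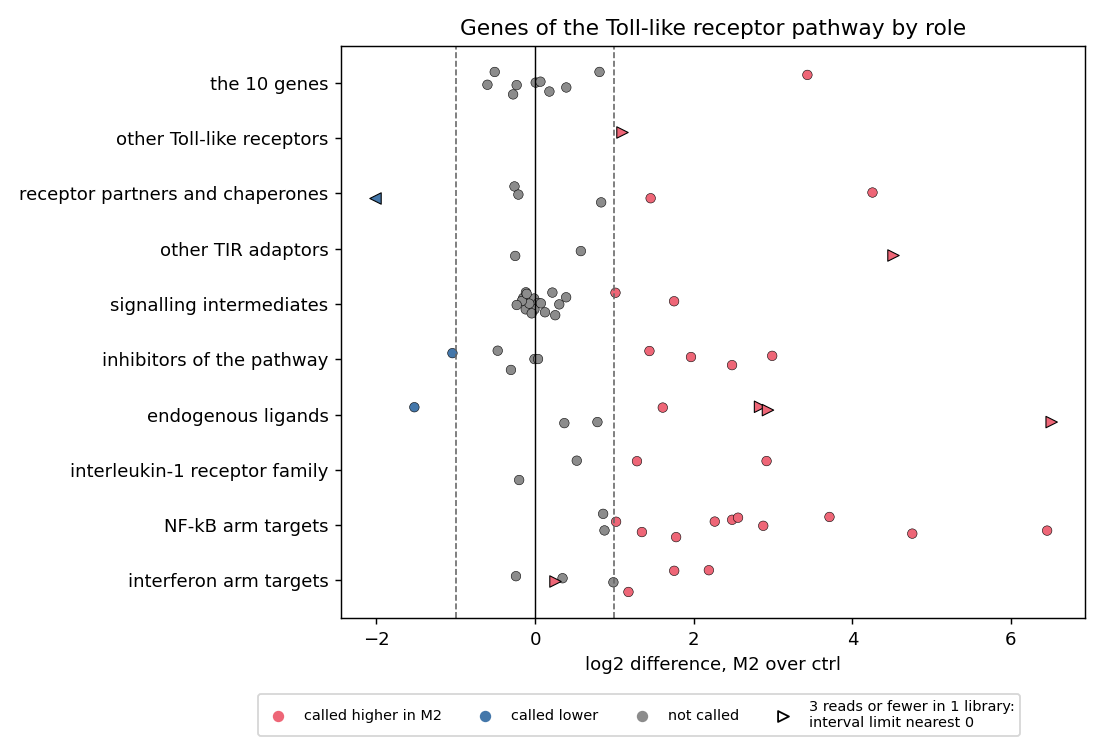
Log2 difference (M2 over ctrl) of each tested gene, by role in the pathway. Dashed lines mark 2-fold, and triangles show the interval limit nearest 0 for genes with 3 reads or fewer in 1 library. Of the 10 genes 1 was called, of the signalling intermediates 2 of 19, and of the NF-κB arm targets 10 of 12. Of all genes tested, 8.16% were called higher and 6.55% lower.

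The calls depend on how much cultures are assumed to vary, which 1 library per group cannot give. When a biological coefficient of variation of 0.2 was assumed (exactTest, edgeR), Cd14 was the only call among the 10 genes, where 5.01% of all genes were called higher. With 0.4 Cd14 was still called, where 0.91% were. Of the 68 pathway genes, 25 were called higher with 0.2 and 8 with 0.4.

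Since Cd14 is also a macrophage gene, markers of macrophages were counted beside it. The list of 23 macrophage markers, which leaves Cd14 out, held 1855 reads in ctrl and 2474 in M2, or 67.5 and 85.8 CPM, and most of these came from Arg1 (1507 and 2090 reads). At or under 3 reads were 18 of the 23 genes in ctrl and 15 in M2. Of these, 8 had 0 reads in both libraries (Ptprc, Adgre1, Tyrobp, Fcer1g, Laptm5, C1qb, C1qc and Chil3). Lyz2, among the most abundant transcripts of macrophages, had 3 reads in ctrl and 1 in M2, Ctss had 5 and 2, and Retnla had 1 in each. More reads in M2 than in ctrl were seen for Itgam (3 and 9), Mrc1 (1 and 5) and Cx3cr1 (1 and 2). The same held for Fcgr1 (1 and 2), C1qa (0 and 2) and Spi1 (0 and 1). Itgam was not called, and the rest of these were too low to be tested. Cd68 (170 and 165 reads) and Csf1r (94 and 92 reads) did not differ beyond counting error. Calls were made for Cd163 (2 and 30 reads, ratio 14.3, 3.63 to 123) and Aif1 (3 and 40 reads, ratio 12.7, 4.05 to 64.2), both higher, and for Mertk (64 and 32 reads), lower. Of 7 markers tested, 2 were thus called higher and 1 lower, against 8.16% and 6.55% of all genes. The summed list differed by 0.35 (0.26 to 0.43) on the log2 scale, a value set mostly by Arg1 (0.40). Cd14 differed by 3.43, and the part of macrophage RNA in that value was not tested. Granulocyte and lymphocyte markers had 0 reads in ctrl and 6 in M2 over 9 genes.

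**Figure D4:**
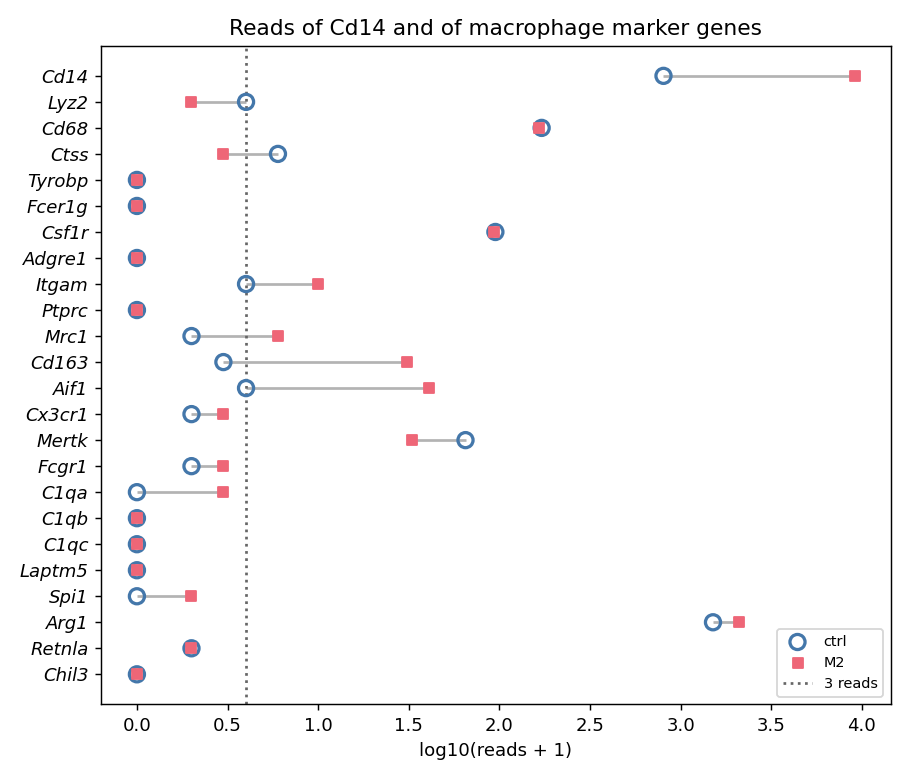
Reads of Cd14 and of 23 macrophage marker genes in ctrl (open circles) and M2 (squares), as log10 of reads plus 1. The dotted line marks 3 reads. Cd14 had 9114 reads in M2, and 15 of the 23 markers had 3 or fewer.

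Epithelial markers differed from list to list. Beside the counts that follow, 8.16% of all genes tested were called higher and 6.55% lower. Of the luminal progenitor list, to which Cd14 is related, Itga2 (521 and 1933 reads, log2 1.82) and Csn3 (5916 and 16755 reads, log2 1.43) were called higher, Kit (15110 and 4973 reads, log2 -1.67) and Elf5 (5704 and 2776 reads, log2 -1.11) were called lower, and Aldh1a3 (0.31) and Itgb3 (0.18) were not called. The 6 genes together changed by 0.13 on the log2 scale. Of the hormone-sensing luminal list 4 of 6 genes were called lower (Pgr, Esr1, Prlr and Foxa1) and 1 higher (Prom1), with a median of -1.57. Of the pan-luminal list 0 of 6 were called, and of the basal list 1 of 10 was called lower (Oxtr, the oxytocin receptor gene, 8324 and 1920 reads). Among fibroblast markers 4 of 9 were called lower (Col14a1, Col3a1, Pdgfrb and Col1a2) and 1 higher (Dcn). The median of -1.53 was the value of Lum (10 and 3 reads), which was not called. Col1a1 (-0.98), Postn (72824 and 71795 reads, -0.09) and Pdgfra (0.37) were not called either, and the summed list differed by -0.37. Among endothelium markers 2 of 3 tested were called lower (Cdh5, 11 and 2 reads, and Kdr, 11 and 0 reads). Pecam1 (33 and 76 reads) was called higher. With an assumed coefficient of variation of 0.2, Cdh5 and Pecam1 were not called. The 1 adipocyte marker tested, Lep (198 and 6 reads), was called lower. The part of these cell types in the Cd14 value was not tested.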

How the data were processed

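RNA of 1 ctrl and 1 M2 culture was sequenced by the submitters. Per the labels, a SMARTER kit for mRNA gave the libraries, sequenced on a HiSeq X per the study. The counts the authors deposited are raw reads in each gene, not normalized, in the column layout of featureCounts. The submitters' processing notes name GRCm38 and mm10. The aligner, the counter, the read length, the use of strand and the handling of multiply matching reads are not given in the sources used here. Coordinates are those of the table, and 9 of the 10 genes have the same start and end in GENCODE M21; Cd14 starts and ends slightly inside the GENCODE gene.

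Libraries were scaled by TMM in edgeR 4.0.16 under R 4.3.3 (factors 1.02 for ctrl and 0.980 for M2). For genes with at least 10 reads summed, the share of M2 reads was tested (exact binomial, two-sided, scipy 1.17.1), Benjamini-Hochberg adjusted over all 19233 genes. Replicated models (the quasi-likelihood test of edgeR, DESeq2) could not be fitted. The pseudocount was 1 read, and intervals are 95% Clopper-Pearson intervals. RPKM was calculated from the deposited exon length. A count of 0 was read as up to 3 reads. Since molecular identifiers are not mentioned, all intervals and floors describe counting error alone. The functions were tested on simulated data. All 10 genes are named. From each other list any called gene could be named, and uncalled genes only where the list is accounted for in full or the gene defines it. Irak1, Irak4, Traf6, Map3k7, Tbk1, Irf3, Irf5 and Irf7 were named outside this rule. So were some uncalled genes of the basal and pan-luminal marker lists. The members and lists were chosen with earlier results of these data known. The symbol Il36g was not matched in the table, so it was not analysed here.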

Additional observations from a re-analysis of the deposited data

How the results depend on the processing

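The calls and differences of the 10 genes, the pathway lists and all genes were recalculated under 12 alternatives: 4 other scalings, pseudocounts of 0.5 and 5, at least 1 CPM in both libraries, at least 1 read, a 4-fold threshold, and assumed coefficients of variation of 0.1, 0.2 and 0.4. Cd14 was the only call among the 10 genes under each of them (Tlr1 was too low for the filter of 1 CPM), with a log2 difference between 3.36 and 3.44. Tlr2 stayed between 0.74 and 0.82 and Tlr4 between -0.58 and -0.50. Small values changed sign. Tlr1 was -0.050 with total reads, -0.061 with total reads without mitochondrial genes and -0.0051 with a pseudocount of 5, and Ly96 was -0.0015 without mitochondrial genes. With total reads Map3k7 was -0.020 and Cyld -0.021, and without mitochondrial genes they were -0.030 and -0.032. The largest of these shifts goes with a median of all genes of -0.07.

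Of the 68 pathway genes, 19 were called higher with at least 1 CPM in both libraries, which leaves fewer genes, 18 higher and 1 lower at 4-fold, and 8 higher and 0 lower with a coefficient of variation of 0.4. Over all genes the same settings gave 797 higher and 583 lower, 616 and 494, and 175 and 130, and a coefficient of 0.2 gave 964 and 691. With 0.2, Traf3, Dusp1, Il6, Ptgs2, Ccl5 and Ifit3 were no longer called, and with total reads Traf3 (0.96) and Ptgs2 (0.96) were not. Without division by length the ratios within a library moved, that of Cd14 to Tlr4 to 1.18 in ctrl and 18.2 in M2, and those of Tlr2 to Tlr4 (0.883) and Tlr3 to Ticam1 (1.30) in ctrl passed to the other side of 1. Their changes between libraries hardly moved, because length cancels. Ranks and motif matches were not recalculated. The marker lists were added to the same alternatives after the data were seen. Of the values of 48 marker genes, 525 kept their direction and call, 38 lost the call, among them Mertk with a pseudocount of 5 and Elf5 with a coefficient of 0.2, and 2 gained it, both Col1a1 with total reads, with or without mitochondrial genes. Acta2 was -0.021 and Epcam -0.0027 with total reads, and -0.032 and -0.013 without mitochondrial genes. Depth limits Tlr1, Tlr6, Ly96 and most macrophage markers. No paired analysis was possible because ctrl and M2 have a single library each.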
